A study of Homo sapiens with 2 samples.

Results

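ZIC1, ZIC2, ZIC4 and ZIC5 of the ZIC family of zinc finger transcription factors were examined in H9 cells, an established human embryonic stem cell line. A pair of substates was compared, which the study described after it moved cells from vitronectin to Matrigel (a basement membrane extract). Members were found through the RefSeq accession that the array design gives for each non-control probe. Each of the 4 genes had 1 probe, so that 4 of the 58201 probes entered, and each of these probes was printed as 1 spot per array. The study told the substates apart by surface staining of colonies. Substate 1 (passage 35 here) was strong in the keratan sulphate epitope R-10G and negative for vimentin, whereas substate 2 (passage 50 here) was weak in R-10G and positive for vimentin, with gaps between its cells. Both were grown feeder-free in TeSR-E8 medium and the labels name no transgene, drug or gene deletion. The move to Matrigel was made at passage 35, and the labels do not name the matrix of either array sample. Sorting by vimentin and removal of other cells by hand are described for other experiments of the study, and how cells were collected for the arrays is not given in the sources used here. Each substate was measured on 1 single-colour Agilent array, and both arrays were on the same slide. No difference reported here therefore has a replicate check, and no p-value is given. Substate, passage and any difference in matrix cannot be told apart.

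ZIC proteins bind DNA through a domain of C2H2 zinc fingers that is related to that of the GLI proteins, the transcription factors of hedgehog signalling. In vertebrate embryos they act in the neural plate, its border and the dorsal neural tube. ZIC1 is known for its role in the dorsal neural tube, in neural crest formation and in cerebellar development, and it lies next to ZIC4, with which it is deleted together in some cases of Dandy-Walker malformation. Loss of function of ZIC2 is a cause of holoprosencephaly, a failure of the forebrain to divide. ZIC5 lies next to ZIC2 and is needed for neural tube closure and neural crest development in mice.

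The members form head-to-head gene pairs, and the sequence before each start site is shown because it is the stretch that the genes of a pair turn towards each other. In the RefSeq annotation of GRCh38.p14, the starts of ZIC4 (minus strand) and ZIC1 (plus strand) lay 2822 bases apart on chromosome 3, and those of ZIC5 (minus strand) and ZIC2 (plus strand) lay 9875 bases apart on chromosome 13. RefSeq windows from 250 bases before to 50 bases after a start were found for 4 of 4 members. ZIC4 had 4 windows and ZIC5 had 3, and the window of the most upstream start is printed. They are chr3:147409115-147409414 (plus strand) for ZIC1, chr3:147406494-147406793 (minus strand) for ZIC4, chr13:99981534-99981833 (plus strand) for ZIC2 and chr13:99971860-99972159 (minus strand) for ZIC5. Each is written 5′ to 3′ on the strand of its gene, and capitals mark CCAAT boxes (CCAAT or ATTGG) and GC boxes (GGGCGG or CCGCCC).
ZIC1: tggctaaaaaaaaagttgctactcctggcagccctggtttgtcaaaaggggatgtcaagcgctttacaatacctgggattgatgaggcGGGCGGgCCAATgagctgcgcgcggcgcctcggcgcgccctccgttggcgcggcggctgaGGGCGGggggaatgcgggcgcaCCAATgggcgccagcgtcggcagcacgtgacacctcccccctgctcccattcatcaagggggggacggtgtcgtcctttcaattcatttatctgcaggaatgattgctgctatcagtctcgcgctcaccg
ZIC4: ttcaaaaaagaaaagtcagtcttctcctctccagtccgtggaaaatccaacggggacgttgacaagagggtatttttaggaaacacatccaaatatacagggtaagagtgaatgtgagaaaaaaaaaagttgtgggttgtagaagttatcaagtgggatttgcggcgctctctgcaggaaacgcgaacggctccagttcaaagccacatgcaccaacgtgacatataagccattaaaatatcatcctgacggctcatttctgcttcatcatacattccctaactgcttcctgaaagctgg
ZIC2: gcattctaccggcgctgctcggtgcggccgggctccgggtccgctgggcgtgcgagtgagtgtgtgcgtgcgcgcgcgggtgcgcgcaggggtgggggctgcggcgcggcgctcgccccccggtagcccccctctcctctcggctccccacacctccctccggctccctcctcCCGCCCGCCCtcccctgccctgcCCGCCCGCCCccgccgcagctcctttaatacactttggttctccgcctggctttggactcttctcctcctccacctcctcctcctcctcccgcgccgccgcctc
ZIC5: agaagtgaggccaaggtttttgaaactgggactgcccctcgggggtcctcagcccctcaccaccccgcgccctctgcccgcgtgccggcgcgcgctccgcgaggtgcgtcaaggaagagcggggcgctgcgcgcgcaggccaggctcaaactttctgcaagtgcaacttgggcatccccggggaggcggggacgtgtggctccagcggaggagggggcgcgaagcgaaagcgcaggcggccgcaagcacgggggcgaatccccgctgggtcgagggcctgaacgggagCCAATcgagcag

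The windows differed in base composition. That of ZIC2 had a GC content of 75% and 35 CpG dinucleotides, that of ZIC5 had 70.3% and 33, and that of ZIC1 had 61.3% and 26. The window of ZIC4 had 43.3% and 10 CpG, below the medians of 58.7% and 14 over all 35116 RefSeq windows. CCAAT boxes were found in the windows of ZIC1 (2 matches) and ZIC5 (1 match), and 34.6% of all windows hold one. GC boxes were found in those of ZIC1 (2 matches) and ZIC2 (4 matches, in 2 overlapping couples), and 15786 of the 35116 windows hold one. The sequence CAGGTG (or CACCTG), the E-box bound by the ZEB proteins, is in none of the 4 windows and in 20.6% of all windows. TATAAA (or TTTATA) was likewise found in none of the 4 and in 4049 of the 35116 windows, and the GLI site TGGGTGGTC (or GACCACCCA) in none and in 0.236%. These matches describe letters, not binding, and a window without a match says nothing about the factor.

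The members fell into those with a clear signal in both substates and 1 at the limit of detection. Spots are described by the processed signal, the brightness in arbitrary units after subtraction of the local background, with the error estimate that the scanner software attaches to each spot. ZIC5 gave 4880 ± 488 in substate 1 and 4225 ± 423 in substate 2. ZIC2 gave 872.2 ± 87.3 in substate 1 and 813.6 ± 81.4 in substate 2. Both genes were far above the lowest signal that the software marked as well above background, which was 14.5 for substate 1 and 15.03 for substate 2. ZIC4 was dim but well above background on both arrays, with 46.2 ± 5.48 in substate 1 and 37.6 ± 4.85 in substate 2. ZIC1 gave 3.07 ± 3.09 in substate 1 and 15.03 ± 3.56 in substate 2 and was marked as well above background on neither array. No spot of these genes was saturated or an outlier. Signals of different probes cannot be ranked against each other as transcript levels, because probes differ in how well they bind.

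**Figure D1:**
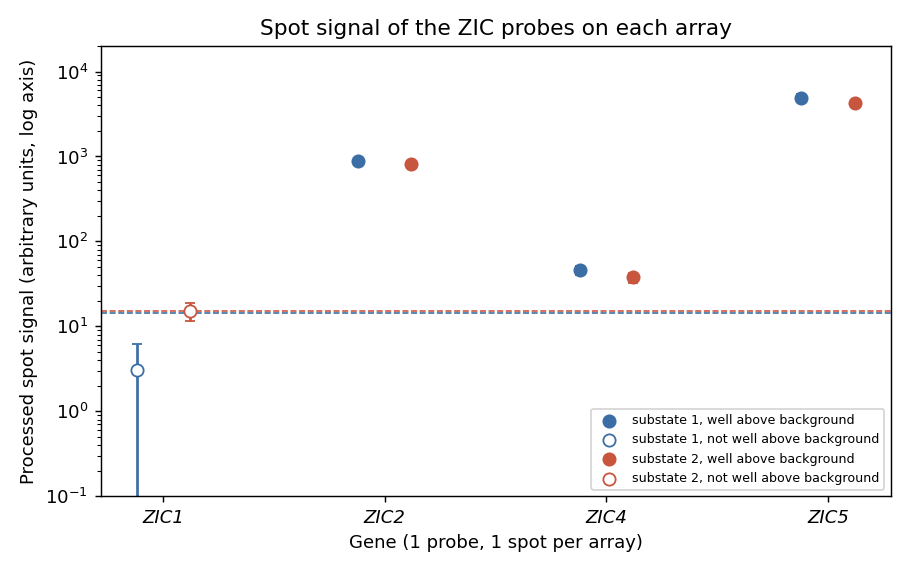
Processed spot signal (arbitrary units, log axis) of the probes of ZIC1, ZIC2, ZIC4 and ZIC5 on the substate 1 (blue) and substate 2 (red) arrays, with the error estimate of the scanner software as bars and the lowest signal well above background on each array as dashed lines. ZIC2, ZIC4 and ZIC5 lie above these lines on both arrays, whereas ZIC1 (open symbols) lies at 3.07 and 15.03, and its lower bar in substate 1 runs off the axis because the error of 3.09 exceeds the signal.

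To compare the substates, each signal was taken as log2 relative to the 75th percentile of its own array, and differences are given as substate 2 minus substate 1. On this scale ZIC2 measured 1.475 in substate 1 and 1.56 in substate 2, a difference of 0.09 (1.06-fold). ZIC5 had 3.96 in substate 1 and 3.94 in substate 2, a difference of -0.02. ZIC4 had -2.76 in substate 1 and -2.87 in substate 2, a difference of -0.11 (1.08-fold lower). These differences were small beside the spread over all probes. Across the 29883 probes well above background on both arrays, the difference had a median of 0.06 and an SD of 0.40. ZIC2 lay at the 53.5 percentile of these probes, ZIC5 at the 42.0 percentile and ZIC4 at the 33.1 percentile. The RNA came from many cells, so that fewer expressing cells and less RNA per cell cannot be told apart.

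The error that the arrays do carry is that within an array, which leaves out differences in labelling and hybridisation between the arrays. It was taken between the spots of the 300 probes printed 10 times. The median spot SD of such probes with at least 5 usable spots was taken on each array, and both were combined into the SD of a difference between 1 spot on each. Over all brightness levels this was 0.069 on the log2 scale. From probes within 1 log2 unit of the signal of ZIC2 it was 0.078 (82 probes for substate 1 and 89 for substate 2). The difference of ZIC2 was thus slightly more than 1 SD of spot noise. For ZIC5 the SD was 0.066 (98 and 104 probes), and its difference was less than 1 SD. For the dim ZIC4 it was 0.23 (6 and 10 probes), and its difference was again less than 1 SD. Measured probes with a mean signal within 0.5 log2 units of each member spread more widely than this noise. For 3274 such probes around ZIC2, the differences ran from -0.48 at the 5th percentile to 0.50 at the 95th percentile. The range was -0.35 to 0.47 around ZIC5 (1687 probes) and -0.88 to 0.72 around ZIC4 (4213 probes), so that every measured member lay inside the range of probes as bright as itself.

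**Figure D2:**
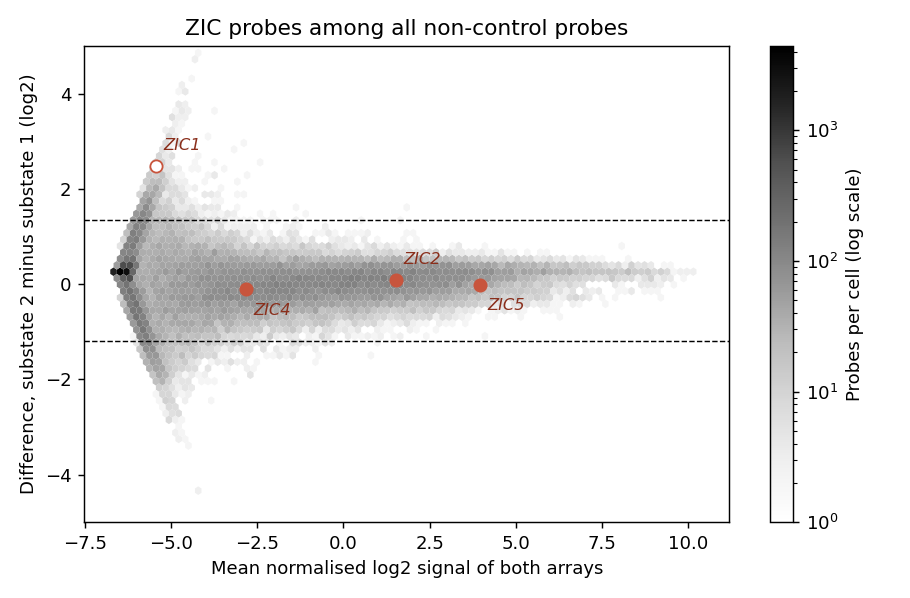
Difference between the substates (log2, substate 2 minus substate 1) against the mean normalised log2 signal of both arrays for 58201 probes, with darker cells holding more probes and dashed lines at a Z-score of 2 and -2. ZIC2, ZIC4 and ZIC5 (filled) lie near 0, and ZIC1 (open, well above background on neither array) lies above the upper line in the fan of dim probes.

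By the Z-score of the study (the difference minus its mean over all probes, divided by its SD over all probes, with limits at 2 and -2), 1 of the 4 members was past a limit. This was ZIC1, with a Z-score of 3.805 in the direction of substate 2. The Z-scores of the others were 0.02 for ZIC2, -0.15 for ZIC5 and -0.29 for ZIC4. Over all probes 3.03% were past the upper limit and 3.30% past the lower limit. Among the probes well above background on neither array, to which ZIC1 belongs, 5.16% were past the upper limit, against 0.355% of those well above background on both. Under a 2-fold rule that leaves out probes without a clear signal on any array, 0 of the 3 members that could be counted were called, where 1.55% of probes were higher and 1.67% lower.

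The ZIC1 spot itself was followed further because the Z-score alone would call it higher. In substate 1 the median pixel of the spot was 62 over a local background of 44, and in substate 2 it was 80 over a local background of 41. The scanner software marked the spot as significant against its local background in substate 2 and not in substate 1. In substate 1, 87.9% of the 25929 spots not well above background had a processed signal at least as high as the ZIC1 spot. That signal (3.07) was no larger than its error (3.09), and the software gives dim spots a small positive value. The rank in substate 1 may therefore not order brightness. In substate 2 only 4.53% of 27567 such spots were at least as bright, which placed the ZIC1 spot among the brightest of them. Of the 308 negative control spots, 236 had a processed signal at least as high as ZIC1 in substate 1, with the same limit, and 1 did in substate 2. The value of 15.03 in substate 2 was level with the lowest signal marked as well above background there. Of the 1026 spots within 0.1 log2 units of it 5.17% had that mark. Spots dimmer than that lowest signal cannot have it, so this share depends on where the range falls. Among the 3572 spots from 15.03 to 24.9, where marked and unmarked spots overlap, 65.0% had the mark. No fold is given for ZIC1, as neither spot was marked as well above background.

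The precision of signals this dim could be read from a few probes printed 10 times of which no spot was well above background. There were 4 such probes in substate 1 and 6 in substate 2. The brightest spot of a probe exceeded the dimmest by a median of 3.20-fold among the former and 2.10-fold among the latter, and by at most 4.20-fold. Probes with the same flags as ZIC1 (well above background on neither array, significant against the local background in substate 2 only) numbered 3038, of which 30.7% were past the upper Z-score limit. The Z-score of ZIC1 was past the limit under 8 of 9 settings and reached 6.65. Not all of these settings could change the call. Median centring and the deposited log2 values shift every difference by a constant, which leaves the Z-score at 3.80. Keeping outlier spots also left it at 3.80, as no ZIC1 spot was an outlier. The values of 6.65 (SD from the median absolute deviation) and 6.18 (probes well above background on both arrays) come from the same ZIC1 difference over a smaller spread. With normexp ZIC1 was inside the limit, at 1.68. That setting also replaced the processed signal by the median pixel and added an offset of 50. Which of these steps moved the Z-score was not tested.

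**Figure D3:**
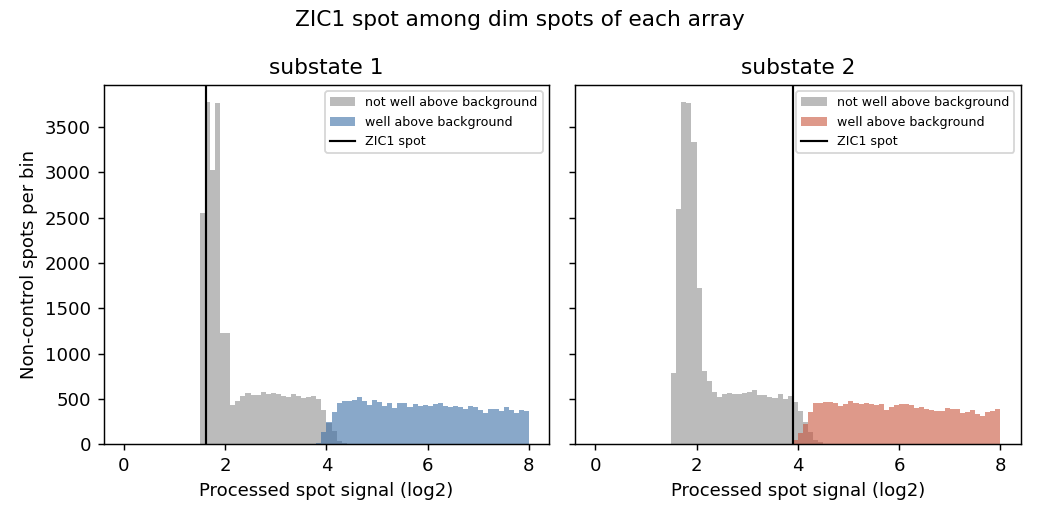
Number of non-control spots per bin of processed spot signal (log2) on each array, for spots marked as well above background (coloured) and not so marked (grey), with bins above 8 left out. The ZIC1 spot (black line) lies in the dim peak in substate 1, at 3.07 units, and at the junction of both classes in substate 2, at 15.03 units.

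The differences were recomputed with 4 scalings (the 75th percentile, the median, quantile normalisation and loess centring) and with normexp. Over the 4 scalings ZIC2 ranged from 0.03 to 0.13, ZIC4 from -0.11 to -0.06 and ZIC5 from -0.15 to 0.02. ZIC5 was above 0 only after centring on the median. Under normexp the differences were 0.08 for ZIC2, -0.03 for ZIC4 and -0.16 for ZIC5. With these settings the median over all 16001 measured genes itself ranged from 0.03 to 0.13. Relative to the median of the measured probes (0.06), ZIC2 was higher by 0.03, ZIC5 differed by -0.08 and ZIC4 by -0.17.

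**Figure D4:**
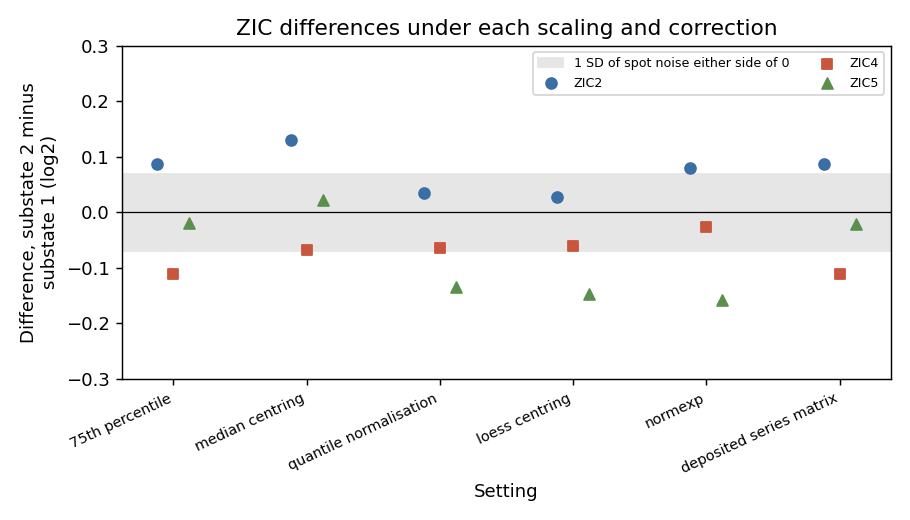
Difference between the substates (log2, substate 2 minus substate 1) of ZIC2, ZIC4 and ZIC5 under scaling to the 75th percentile and 5 of the alternatives, with 1 SD of spot noise (0.069) either side of 0 in grey. The band is taken over all brightness levels and is too narrow for the dim ZIC4, at whose signal the SD was 0.23. All values lie between -0.16 and 0.13, and those of ZIC5 lie on both sides of 0.

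The array design also carries 6 probes for long noncoding RNA whose names contain a ZIC gene. All 6 were dim, with processed signals from 3.06 to 20.1. Only lnc-ZIC2-1 was well above background on any array, with 20.1 in substate 1 and 13.4 in substate 2. The 3 probes named after ZIC1 had signals of 3.06 to 3.18 in substate 1 and 3.28 to 4.44 in substate 2, and those named after ZIC4 had 3.79 and 5.39 in substate 1 and 4.76 and 5.71 in substate 2. No lnc probe of these passed a Z-score limit.

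Genes that flank the pairs were compared to see whether the surrounding region differed. The 5 nearest protein-coding genes on either side of ZIC4 and ZIC1 had probes for 9 of 10 genes, and 4 were measured on both arrays. These were the phospholipid scramblase genes PLSCR4 (-0.60) and PLSCR1 (0.05), GYG1, which encodes a glycogenin (0.25), and HLTF, a helicase-like factor (-0.13). PLSCR2, PLSCR5, AGTR1, CPB1 and CPA3 were well above background on neither array, like ZIC1. Next to ZIC5 and ZIC2, 7 of 10 genes were measured on both arrays. They were UBAC2 (0.04), TM9SF2 (-0.41), CLYBL (0.02), PCCA (-0.04), GGACT (0.56), TMTC4 (0.07) and NALCN, a sodium leak channel (-0.19). GPR18, GPR183 and ITGBL1 were well above background on neither array. A further probe of CLYBL reached a clear signal in substate 2 alone, where it was at least 2.27-fold higher. A bound of this kind sets the brighter value against the lowest signal well above background on the dim array, or the dim spot where that is higher. The median differences were -0.04 and 0.02, beside 0.08 over all genes measured, and no flanking probe well above background on any array passed a Z-score limit. PLSCR2 (Z-score 2.64), CPA3 (2.32) and ITGBL1 (2.15) did so without a clear signal in any substate, as ZIC1 did.

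The GLI and GLIS relatives of the ZIC proteins and the genes of the hedgehog pathway had median differences close to that of all genes. Of the 6 GLI and GLIS genes 5 were measured on both arrays, with a median difference of 0.13. GLI3, the main repressor of the pathway, had 2.93 in substate 1 and 3.43 in substate 2 (difference 0.50), and GLI1, a transcriptional target of the pathway, had 1.65 and 1.25 (difference -0.39). GLIS2 differed by 0.40 and GLIS1 by -0.18. The 3 probes of GLI2 measured on both arrays disagreed in sign (-0.11 to 0.31), as did those of SUFU, an inhibitor of GLI proteins (-0.14 to 0.35), TGIF1 (-0.05 and 0.35) and the receptor FGFR1 (-0.34 and 0.08). In the hedgehog list 17 of 21 genes were measured, 12 of them higher in substate 2 and 5 lower, with a median of 0.13, whereas 59.8% of all genes measured were higher. The highest and lowest differences were those of GAS1, a hedgehog coreceptor (0.97), HHAT, the enzyme that palmitoylates hedgehog ligands (0.62), GLI1 (-0.39) and DISP1, which releases hedgehog ligands from cells (-0.28). The ligand SHH had a clear signal in substate 2 alone (at least 1.58-fold higher), and SCUBE2, which helps to release hedgehog ligands, in substate 1 alone (at least 1.44-fold lower in substate 2). PTCH1 differed by 0.11 on 1 probe, whereas its other probe had a clear signal in substate 1 alone (at least 1.22-fold lower in substate 2). The holoprosencephaly genes, to which ZIC2 belongs, had a median of -0.02 over 11 measured genes, 5 higher and 6 lower. GAS1 and TGIF1, a repressor of TGF-beta signalling (0.15), were highest, and CRIPTO, the Nodal coreceptor (-0.46), and NODAL (-0.43) were lowest.

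Other genes of the tissues in which ZIC genes act were more uneven. Among genes of the formative and primed pluripotent state 12 of 13 were measured, with a median of 0.23 and 8 of them higher. LEF1, a mediator of WNT signalling, had -1.86 in substate 1 and -0.81 in substate 2 (difference 1.05), and ETV5 differed by 0.56. POU3F1 (-0.14) and SFRP2 (-0.13) were lowest. Of the 18 genes of the anterior neural plate and dorsal midline 10 were measured, 5 in each direction. LHX2, a homeobox gene of the forebrain, had -1.86 in substate 1 and 0.47 in substate 2 (difference 2.32, Z-score 3.56), and the eye field gene RAX differed by 1.00. GDF7, a roof plate signal (-1.05), and OTX1 (-0.89) were lowest. The remaining measured genes were SOX2 (0.26), LMX1B (0.24), SOX3 (0.03), OTX2 (-0.04), HESX1 (-0.07) and WNT3A (-0.22). SOX1, an early neural marker, and HES5, a Notch target, reached a clear signal in substate 2 alone, at least 1.71-fold and 1.90-fold higher. Like SHH they were past the upper Z-score limit, as were 11.1% of all probes well above background on 1 array, but their substate 1 spots give no level and the size of the Z-score has no meaning beyond the bound. PAX6, SIX3, LHX5, EMX2, LMX1A and WNT1 were well above background on neither array.

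At the neural plate border, where ZIC1 is known to act with PAX3, 8 of 15 genes were measured. Of these 6 were higher and the median of all 8 was 0.06, beside 59.8% higher and a median of 0.08 over all genes measured. SNAI2 (0.02), FOXD3 (0.05) and SOX10 (0.06) were among those 6 and below the median of all genes, whereas SOX9 (0.42) was among them and above it. GBX2, a homeobox gene of the hindbrain and border, had -0.05 in substate 1 and 2.92 in substate 2 (difference 2.97, Z-score 4.58), and PAX7 differed by 0.45. TFAP2C had -1.86 in substate 1 and -3.71 in substate 2 (difference -1.86, Z-score -3.05, where 0.622% of probes measured on both arrays were past the lower limit), and MSX1 differed by -0.61. The substate 2 value of TFAP2C was near the lowest level well above background on that array (-4.20), where spots are less precise. PAX3, MSX2, TFAP2A, TFAP2B, DLX3, DLX5 and DLX6 were well above background on neither array. In the cerebellar granule lineage, which is known for strong ZIC1 expression, 7 of 12 genes were well above background on neither array, ATOH1, BARHL1 and NEUROD1 among them. Of the 4 measured, PAX8 had -3.71 in substate 1 and -1.10 in substate 2 (difference 2.61, Z-score 4.01), EN2 differed by 0.30, CBLN1 by 0.18 and CNTN2 by 0.16. The markers set for this lineage were ATOH1, BARHL1, EN2 and CBLN1, so the rise of PAX8 does not stand for the lineage. Its substate 1 value was near the lowest level well above background on that array (-4.44). EN1 had a clear signal in substate 2 alone and was inside the Z-score limits. Among all genes measured on both arrays 0.931% were 2-fold or more higher and 1.07% 2-fold or more lower.

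**Figure D5:**
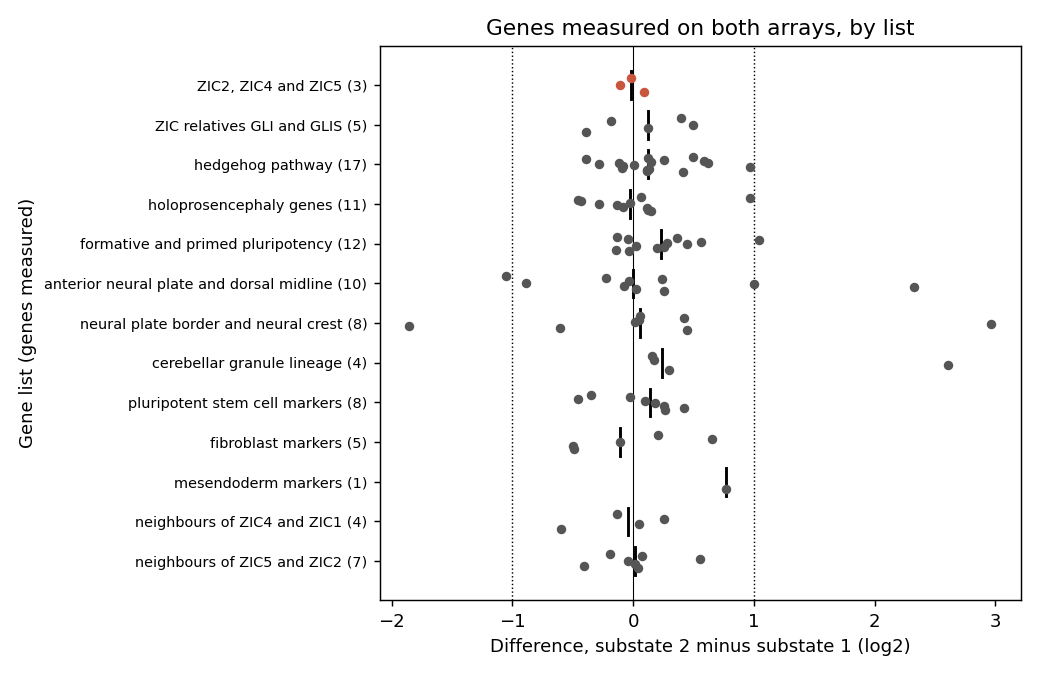
Difference between the substates (log2, substate 2 minus substate 1) of genes measured on both arrays, by list, with each point a gene, the thick line the median, and dotted lines at 2-fold. ZIC2, ZIC4 and ZIC5 (red) lie within 0.11 of 0, whereas LHX2, GBX2, PAX8, LEF1, TFAP2C and GDF7 lie beyond the dotted lines.

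The labelled cell type was checked against its markers. All 8 pluripotency genes, POU5F1, NANOG, SOX2, LIN28A, LIN28B, CRIPTO, SALL4 and PODXL, gave clear signals in both substates. Their differences ran from -0.46 to 0.42, with a median of 0.14. NANOG (0.42), POU5F1 (0.27), PODXL (-0.35) and CRIPTO (-0.46) were at the extremes. Of 8 mesendoderm genes only FOXA2 was measured on both arrays (difference 0.77), GATA4 had a clear signal in substate 1 alone (at least 1.03-fold lower in substate 2), and TBXT, MIXL1, EOMES, GSC, SOX17 and GATA6 were well above background on neither. Of 8 fibroblast genes COL3A1, LUM and DCN were well above background on neither array, and the other 5 had a median of -0.11, with PDGFRA (0.65), PDGFRB (0.21), COL1A2 (-0.50) and COL1A1 (-0.49) at the extremes.

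With 2 arrays, likeness between genes reduces to the gap between their differences, which is a match of 1 number. Among the 69 other genes of the lists that were measured on both arrays, the nearest to ZIC2 were LIN28B (gap 0.011), DLL1 (0.025) and PTCH1 (0.025). The value of PTCH1 rests on 1 of its 2 probes. The nearest to ZIC5 were FOXH1 (0.0042), SALL4 (0.0079) and OTX2 (0.016), and the nearest to ZIC4 were THY1 (0.00091), DISP2 (0.0047) and KIF7 (0.016).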

How the data were processed

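Total RNA of 1 sample per substate was labelled with Cy3 and hybridised to a SurePrint G3 array. The authors deposited scanner files with a processed intensity per spot, which, per the file headers, Feature Extraction 11.5.1.1 made with protocol GE1_1105_Oct12 (local background subtracted, spatial trends removed, dim spots given a small positive value). They also deposited log2 values that were shifted by the 75th percentile in GeneSpring GX 14.9.1. Those log2 values differed from the values computed here by a constant per array for 58201 of 58201 probes (within 0.01). The medians of the 2 deposited columns were -3.57 and -3.62.

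Intensities under 1 were to be set to 1, which applied to 0 spots. After outlier spots were left out, log2 values were averaged over the spots of each probe, and the 75th percentile over non-control probes was subtracted. The median spot signal was 31.8 and 27.2, and the share of the 60901 non-control spots flagged well above background was 57.4% and 54.7%. No spot was saturated, and the number of arrays limits the precision. With 1 array per group no test was possible. A gene value is the mean over its probes well above background on both arrays. Probes were named by accession through RefSeq for GRCh38.p14, which matched 31104 of 58201 probes (53.4%). The array was annotated on hg19, so gene coordinates are given only for the RefSeq windows. The 4 members and the 10 gene lists were chosen with earlier results of these data known, and some genes were taken out of the lists and are not reported here, so their values support nothing beyond themselves. Named were all members and all flanking genes with a probe, the 2 highest and 2 lowest measured genes per list, genes with a probe past the Z-score limits and well above background on at least 1 array, genes whose probes disagree in sign, and the 3 nearest genes per member. Further genes named by their background flags or as remaining members of some lists were chosen after their values were seen. The alternatives were median centring, quantile normalisation, loess centring (span 0.3), normexp (offset 50), outlier spots kept, the deposited log2 values, other spreads for the Z-score, no background filter and bounds in place of missing genes. Normexp was run on the median spot signal and the median local background, not on the mean spot signal that had been planned. Functions were tested on simulated data. limma 3.58.1 under R 4.3.3, Python 3.11.15, numpy 2.4.6, pandas 2.3.3 and matplotlib 3.10.9 were used.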

Additional observations from a re-analysis of the deposited data

How the results depend on the processing

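No paired analysis was possible because the design holds a single array for either substate and nothing was tested. Of the members, ZIC1 alone changed its side of a limit. Its Z-score ran from 1.68 under normexp to 6.65 with an SD from the median absolute deviation. It was past the limit under 8 of 9 settings, some of which, such as median centring, cannot change a Z-score. Accordingly, the number of members past the upper Z-score limit went from 1 to 0 under normexp, and the number 2-fold or more higher went from 0 to 1 (ZIC1) without a background filter. The difference of ZIC5 became -0.13 under quantile normalisation, -0.15 under loess centring and -0.16 under normexp, and that of ZIC4 became -0.026 under normexp.

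Medians of the lists moved as follows. Quantile normalisation gave 0.049 for formative and primed pluripotency, 0.0080 for pluripotent stem cell markers and -0.30 for fibroblast markers. Loess centring gave 0.043, -0.016 and -0.31 for these lists, and -0.050 for the genes flanking ZIC5 and ZIC2. Normexp gave 0.15 for formative and primed pluripotency, 0.14 for the neural plate border, -0.22 for fibroblast markers and 0.50 for mesendoderm markers. Without a background filter the medians were 0.27 for the anterior neural plate, 0.28 for the neural plate border, 0.23 for fibroblast markers, 0.14 for mesendoderm markers and 0.20 for the genes flanking ZIC4 and ZIC1. With genes measured on 1 array entered at their bounds they were 0.13 for the anterior neural plate and 0.36 for mesendoderm markers. The cause of these shifts was not tested. Signals near background limit ZIC1, and a single spot per array limits every member.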
